A study of Mus musculus with 12 samples.

Results

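Adult enterocytes, the absorptive cells of the villus, were compared with the epithelium of the embryonic small intestine by H3K4me3, a histone mark measured by chromatin immunoprecipitation and sequencing. The 2 enterocyte and 2 E14.5 peak lists were merged wherever peaks overlapped or touched, which gave 21243 autosomal regions, against 24352 regions on all chromosomes when the 8 lists of the series are merged. A further 692 regions on X or Y were left out. Enterocytes came from Lgr5EGFP-Cre-ERT males at postnatal day 60, sorted as live EpCAM+ CD31- CD45- cells. Intestinal stem cells (ISC), sorted for high Lgr5-EGFP from the crypts of the same kind of mice, served to place each change. E14.5 epithelium was sorted through the EpCAM+ CD31- CD45- gate from E14.5 embryos, whose sex and genotype the labels do not give. All groups were small intestine of a mixed C57BL/6 CD1 strain, with 2 libraries each, called biological duplicates, and 1 input served both libraries of a group, so that group, input and cell isolation cannot be told apart. The EpCAM gate admits every epithelial cell type, not enterocytes alone. Lists from 2 libraries of E12.5 embryos, which also shared 1 input, were read only for whether a peak was present.

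H3K4me3 marks promoters that are in use or held ready, and its spread over a promoter is broad at many genes that define a cell type. Between E14.5 and adulthood the gut tube's epithelium forms villi and crypts, and enterocytes take up lipids, sugars, peptides and ions through a brush border. A missing peak here means that the authors' caller reported none at that depth, not that the mark was absent.

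The files name no genes. Names were attached from recalled mm9 positions, good to about 10 kb, and only where 1 region in reach was at least 2 times as long as any other, so a neighbouring gene may own a region and each name is a label of limited certainty. The length compared was that of the merged region, which 1 group with long coverage can set. The rule thus leans to regions long in some group, and peaks in reach outside the tied region were not counted. Of 69 listed genes, 35 were tied to 34 regions, 5 had no region in reach, 6 had no single region and 23 were recalled too loosely to be placed.

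The promoters of 4 genes on which the results turn are shown, Npc1l1 and Pigr with the mark in enterocytes and Meis1 and Sox11 with long coverage in the embryo. They are RefSeq sequences of the build GRCm38.p6, matched by symbol and not read at the mm9 peaks, from 250 bases before to 50 after the start, with CG dinucleotides in capitals.
Npc1l1 (minus strand): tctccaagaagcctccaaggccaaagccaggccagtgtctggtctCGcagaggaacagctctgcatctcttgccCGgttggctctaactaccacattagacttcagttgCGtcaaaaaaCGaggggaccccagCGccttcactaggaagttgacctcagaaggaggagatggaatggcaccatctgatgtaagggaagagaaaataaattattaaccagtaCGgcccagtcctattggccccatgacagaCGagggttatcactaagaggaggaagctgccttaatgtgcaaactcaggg
Pigr (plus strand): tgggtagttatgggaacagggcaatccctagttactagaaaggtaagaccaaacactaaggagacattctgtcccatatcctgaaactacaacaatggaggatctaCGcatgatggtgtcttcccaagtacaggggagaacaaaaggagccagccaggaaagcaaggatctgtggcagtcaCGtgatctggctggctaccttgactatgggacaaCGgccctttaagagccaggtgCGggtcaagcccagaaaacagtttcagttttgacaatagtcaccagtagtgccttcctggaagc
Meis1 (minus strand): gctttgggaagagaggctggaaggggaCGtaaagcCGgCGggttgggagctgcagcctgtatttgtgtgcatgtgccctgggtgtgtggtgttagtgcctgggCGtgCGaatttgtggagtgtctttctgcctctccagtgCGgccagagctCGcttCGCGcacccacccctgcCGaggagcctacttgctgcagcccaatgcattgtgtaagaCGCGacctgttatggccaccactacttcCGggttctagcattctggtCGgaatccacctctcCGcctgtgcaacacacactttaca
Sox11 (minus strand): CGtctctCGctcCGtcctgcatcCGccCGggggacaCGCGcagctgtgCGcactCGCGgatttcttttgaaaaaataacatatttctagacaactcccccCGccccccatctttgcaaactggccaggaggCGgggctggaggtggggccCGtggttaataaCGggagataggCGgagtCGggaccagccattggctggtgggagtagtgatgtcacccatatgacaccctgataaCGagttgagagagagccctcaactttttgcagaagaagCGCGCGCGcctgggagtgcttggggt
The Npc1l1 promoter held 7 CG, Pigr 4, Meis1 15 and Sox11 21. Other placed genes divided this way only in part. Among those longer in enterocytes, Anpep held 28, Klf4 40, Slc26a6 13, Apob 9, Vil1 and Abcg5 5, Fabp1 and Ceacam1 3 and Sis 1. Abcg8, tied to the same region as Abcg5, held a median of 13.5 over 2 promoters. Pcdh7, lost in enterocytes, held 11 and Hnf4a, shorter there, a median of 4 over 2 promoters. Over listed genes with a promoter entry, the median was 4.5 for sterol and lipid absorption and 7.5 for brush border and uptake. It was 13.5 for embryonic transcription factors and adhesion. The median over 32841 mouse promoters of the same length was 7, and 34.6% of them held at least as many as Meis1 and 24.8% at least as many as Sox11. The motif TATAAA, searched on both strands, was in none of these 4 and in 13.6% of all promoters. It was found in 4 of the 10 sterol and lipid genes with a promoter entry (Abcg5, Abcg8, Apob and Fabp1), and in Sis and Alpi. Vim, lost in enterocytes, also held it, as did Rgmb, Ptprc, Muc2, Chga and Krt8 of the other lists.

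Depth was 12821255 and 22137910 tags in enterocytes, 13355462 and 25547814 in ISC, and 43259380 and 22718162 at E14.5. The autosomal lists held 11272 and 16567 peaks in enterocytes and 15668 and 17068 at E14.5. Enterocyte replicate 1 thus had the lowest depth and the shortest list. Of 3291 regions called in 1 enterocyte list and no E14.5 list, 3125 were in replicate 2 alone.

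The 4 markers of the comparison mostly followed the labels. Npc1l1, the intestinal cholesterol importer, and Abcg5 with Abcg8, the sterol exporter pair that shares a promoter region, were called in both enterocyte lists and neither E14.5 list. The Abcg5/Abcg8 region was 1 of 4 within reach, and each E14.5 list had 1 peak in reach outside it. Shh, a signal from gut epithelium to mesenchyme, was covered over a fraction of its embryonic length in enterocytes. Igf2, a fetal growth factor, had 0 and 1478 bp under peaks in enterocytes, 0 and 586 bp in ISC and 11105 and 10809 bp at E14.5, and with the enterocyte libraries so far apart it missed the threshold (limma, adjusted p = 0.0718). Without enterocyte replicate 1 its log2 change was -2.49, against -4.07 with both. Quantile normalization (limma adjusted p = 0.0186), 1000 bp added before logs (0.0145), lists of equal number (1.51e-05) and only peaks reaching a −log10 q of 10 (0.001) gave a call.

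Genes of sterol and lipid absorption carried more of the mark in enterocytes. All 4 tested regions of this list were longer (5 of its 11 genes tied), with a median log2 change in covered bp of 3.50 against -0.20 over all 16378 regions tested, of which 10.1% were longer and 21.4% shorter. Medians over lists with members at 0 bp in a group depend on the 200 bp added before taking logs. For this list the median was 4.61 with 50 bp and 2.18 with 1000 bp. This list and those below were chosen with earlier results of these data known, and genes were tied after region values had been seen. Their counts and medians describe the placed genes, and setting them beside all regions is no test of a list. The Npc1l1 region (chr11:6123145-6131777, mm9) had 6861 and 8633 bp under peaks in enterocytes, 0 and 949 bp in ISC and none at E14.5. Both enterocyte libraries stood above all others (limma, adjusted p = 0.0115 against E14.5), and only ISC replicate 2 had any coverage among the rest. That call was lost when any 1 of the 4 enterocyte and E14.5 libraries was left out. The fit took its spread from all 3 groups, with the ISC pair at 0 and 949 bp. Fitted on the 4 enterocyte and E14.5 libraries alone, the limma adjusted p was 0.00169. The Abcg5/Abcg8 region (chr17:85077991-85085096) had 6618 and 7048 bp in enterocytes, 2531 and 2875 bp in ISC and none at E14.5 (adjusted p = 0.000144). Stem cells lay between, longer than E14.5 (adjusted p = 0.000155) and shorter than enterocytes (log2 change of enterocytes against ISC 1.27 ± 0.07 SE, adjusted p = 0.00329).

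Apob, the structural protein of chylomicrons, had 4139 and 4693 bp in enterocytes, 1062 and 1852 bp in ISC and 1433 and 1632 bp at E14.5. Its log2 change was 1.69 ± 0.18 (SE, limma adjusted p = 0.00317), with ISC in the range of E14.5, and it was lost without E14.5 replicate 1 (0.0563). Fabp1, a cytosolic fatty acid carrier, had 2541 and 2595 bp in enterocytes, none in ISC and 409 and 1314 bp at E14.5. It was the 1 listed region of this group called at E14.5 and not in stem cells. The change of 1.78 ± 0.46 lay at the edge of the threshold (adjusted p = 0.0477) and was lost under 10 of the alternatives, among them the omission of enterocyte replicate 1 (0.156) or replicate 2 (0.115), E14.5 replicate 1 (0.121), or ISC replicate 1 (0.0895) or replicate 2 (0.0885).

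Of the brush border and uptake genes, 4 of 10 were tied, and all 4 of their regions were longer, against 10.1% of all regions tested. Their median log2 change was 2.67. Vil1, the actin bundler of microvilli, had 7346 and 7719 bp in enterocytes, 2599 and 2861 bp in ISC and 3166 and 3176 bp at E14.5. Its coverage differed between enterocytes and E14.5 (log2 change 1.49 ± 0.09, limma adjusted p = 0.000457), and ISC did not pass against E14.5 (0.672). Slc26a6, an apical anion exchanger, rose in steps, with 5322 and 8474 bp in enterocytes, 1633 and 1903 bp in ISC and 888 and 984 bp at E14.5, and all 3 contrasts passed (2.87 ± 0.15 for enterocytes against E14.5, adjusted p = 0.000292). Sis, the sucrase-isomaltase of the brush border, had 3506 and 2286 bp in enterocytes, 891 and 793 bp in ISC and none at E14.5 (adjusted p = 0.00115). Anpep, an aminopeptidase that trims peptides, had 6067 and 7317 bp in enterocytes, 551 and 2026 bp in ISC and 1394 and 1205 bp at E14.5. Its change was 2.47 ± 0.48 (limma adjusted p = 0.0213). The call was lost when any 1 enterocyte or E14.5 library was omitted, with log2 changes of 2.36 to 2.56. Fitted on the 4 enterocyte and E14.5 libraries without ISC, the adjusted p was 0.00169.

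Both genes of the mucosal surface list were gained, as were 3.47% of all regions, and were called in both stem-cell lists too, as were 23.6% of gained regions. Pigr, which carries antibodies across the epithelium, had 4609 and 3906 bp in enterocytes, 4609 bp in each ISC library and none at E14.5 (limma, adjusted p = 0.000144). Ceacam1, a surface adhesion protein, had 3354 and 3483 bp in enterocytes, 2939 and 3378 bp in ISC and none at E14.5 (adjusted p = 0.000144). Enterocytes and ISC did not differ past the threshold at either (adjusted p = 0.807 for Pigr and 0.596 for Ceacam1).

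**Figure D1:**
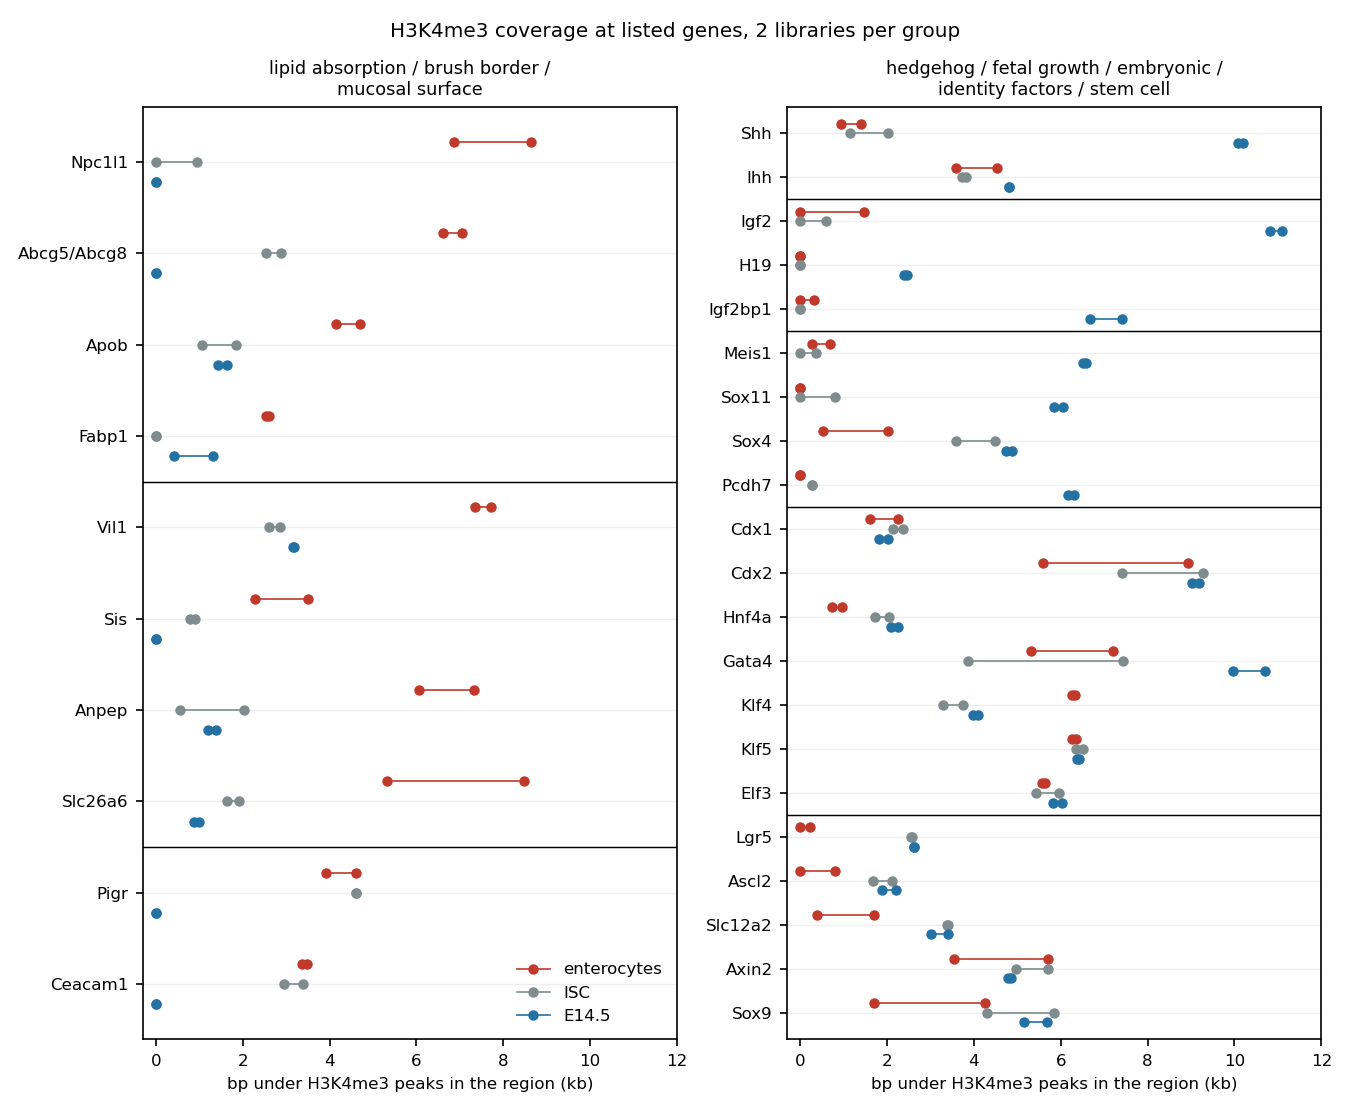
Bp under H3K4me3 peaks (kb, unscaled) at the regions tied to listed genes, each point 1 library and each line joining the 2 libraries of a group; rows run down the page by list and colours mark enterocytes, ISC and E14.5. At Abcg5/Abcg8 the enterocyte points lie at 6618 and 7048 bp and the E14.5 points at 0, and at Shh the enterocyte points lie at 934 and 1404 bp and the E14.5 points at 10204 and 10078 bp.

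Most placed embryonic and fetal genes had shorter coverage in enterocytes. Of the 4 regions of embryonic transcription factors and adhesion genes, 3 were shorter (median log2 change -3.94, and -5.09 with 50 bp or -2.40 with 1000 bp added), against 21.4% of all regions tested. The same held for 2 of the 3 placed fetal growth regions (median -4.07, and -5.43 or -2.62 with 50 or 1000 bp added) and 1 of the 2 hedgehog regions. Igf2, Sox4 and Ihh did not pass. Shh (chr5:28784448-28795085) had 934 and 1404 bp in enterocytes, 1160 and 2019 bp in ISC and 10204 and 10078 bp at E14.5. All 4 adult values lay far below the embryonic ones (log2 change of enterocytes against E14.5 -2.66 ± 0.21, limma adjusted p = 0.00102, and of ISC against E14.5 -2.28, adjusted p = 0.00223), and the adult groups did not differ past the threshold (0.429). Ihh, the hedgehog ligand of differentiated epithelium, had 3598 and 4541 bp in enterocytes, 3726 and 3817 bp in ISC and 4813 and 4807 bp at E14.5, with no contrast past the threshold (0.732 for enterocytes against E14.5).

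Meis1, a homeobox cofactor, had 263 and 697 bp in enterocytes, 0 and 357 bp in ISC and 6521 and 6579 bp at E14.5 (log2 change -3.13 ± 0.58, limma adjusted p = 0.0182). Sox11, a transcription factor of embryonic progenitors, had no coverage in enterocytes, 0 and 813 bp in ISC and 5842 and 6050 bp at E14.5 (adjusted p = 0.0142). Each lost its call when single libraries were omitted: Meis1 without enterocyte replicate 1 or either E14.5 library, and Sox11 without any 1 of the 4. Fitted on the 4 enterocyte and E14.5 libraries without ISC, the limma adjusted p was 0.0087 for Meis1 and 0.00169 for Sox11. Pcdh7, a protocadherin, had none in enterocytes, 281 and 272 bp in ISC and 6298 and 6176 bp at E14.5 (adjusted p = 0.000144). The short stem-cell coverage there still exceeded that of enterocytes (0.0244). Sox4, a related Sox factor, had 534 and 2021 bp in enterocytes, 3587 and 4491 bp in ISC and 4870 and 4734 bp at E14.5. The enterocyte replicates differed widely, and the region missed the threshold (limma adjusted p = 0.062). It passed with quantile normalization (0.00943) or with 1000 bp added (0.0366). Its log2 change was -0.93 without enterocyte replicate 1 and -2.41 without replicate 2.

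Igf2bp1, a fetal RNA-binding protein, had 0 and 328 bp in enterocytes, none in ISC and 7408 and 6673 bp at E14.5 (log2 change -4.28 ± 0.51, limma adjusted p = 0.00421, and 0.0624 without E14.5 replicate 1 or 0.0581 without E14.5 replicate 2). H19, an imprinted noncoding RNA next to Igf2, had none in any adult library and 2386 and 2469 bp at E14.5 (adjusted p = 0.000145). Both were thus already missing from the stem-cell lists. Where 1 library of a pair is at 0 bp, as for Igf2, Igf2bp1, Ascl2 and Lgr5, the size of the log2 change depends on the 200 bp added before taking logs.

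Of 7 tested regions of intestinal identity factors (9 genes, 7 tied), 1 was longer, 1 shorter and 5 did not pass, with a median log2 change of 0.21. Over all regions tested, 68.6% did not pass, so the count is near the background. Klf4, a factor of differentiated epithelium, had 6332 and 6261 bp in enterocytes, 3291 and 3754 bp in ISC and 4105 and 3984 bp at E14.5 (0.90 ± 0.12, limma adjusted p = 0.00551, lost without E14.5 replicate 1 at 0.109 or replicate 2 at 0.121). Hnf4a, a nuclear receptor of enterocyte genes, had 739 and 960 bp in enterocytes, 1727 and 2046 bp in ISC and 2251 and 2082 bp at E14.5 (-0.92 ± 0.08, adjusted p = 0.00166). Its symbol has 2 promoter entries, and only the 1 region within 10 kb of its recalled place was measured. Cdx1 and Cdx2, the homeobox factors of intestinal fate, and Elf3, Klf5 and Gata4 had adjusted p between 0.141 and 0.866. In lists of equal number the Cdx1 region passed (limma adjusted p = 7.08e-05). With all peaks it had 1609 and 2256 bp in enterocytes and 2013 and 1823 bp at E14.5. A cut by rank can drop a whole peak, so that call is no measure of added length.

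Among stem-cell genes, 1 of 5 tested regions was shorter, close to the 21.4% of all regions. Lgr5, the receptor by which the stem cells were sorted, had 0 and 222 bp in enterocytes, 2578 and 2558 bp in ISC and 2624 and 2611 bp at E14.5, with the ISC and E14.5 values close together and both enterocyte values below them (log2 change of enterocytes against E14.5 -3.09 ± 0.38, limma adjusted p = 0.00467). It was lost without E14.5 replicate 1 (0.0728) or replicate 2 (0.0715). Ascl2, a stem-cell transcription factor, had 0 and 794 bp in enterocytes, 1677 and 2114 bp in ISC and 1893 and 2197 bp at E14.5 (adjusted p = 0.11). It passed with quantile normalization (limma adjusted p = 0.033) and with 1000 bp added (0.0493). Without enterocyte replicate 1 its log2 change was -0.95, against -2.15 with both. Slc12a2, Sox9 and Axin2 had adjusted p of 0.116, 0.233 and 0.428, and at all 5 regions enterocyte replicate 2 had more coverage than replicate 1. Without replicate 2 the log2 changes were -2.22 at Slc12a2 and -1.17 at Sox9, and without replicate 1 they were -0.60 and -0.09. Slc12a2 passed with quantile normalization (limma adjusted p = 0.0227).

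Markers of other cell types were placed in part. Of 4 leukocyte genes, Ptprc, Cd3e and Cd8a had no peak within 10 kb of their places in any of the 6 lists. The region near Cd3g was called in all 6 at 1193 to 1421 bp (limma adjusted p = 0.111). Its log2 change was 0.26, and 0.35 without enterocyte replicate 2. Of 4 mesenchyme genes, Col1a2 had no peak, and Vim had none in the adult libraries and 2294 and 2114 bp at E14.5 (limma, adjusted p = 0.000152), so that a mesenchyme marker moved with the regions lost in enterocytes. Atoh1, the secretory lineage factor and the 1 placed gene of 5 secretory markers, had 0 and 1738 bp in enterocytes, 0 and 3212 bp in ISC and 3229 and 3262 bp at E14.5 (0.372). The endothelial and all-epithelium lists were not placed. The part of other cell types in the results was not tested.

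Over all 21243 regions, 10077 were called in all 4 lists, 738 (3.47%) were gained, that is, called in both enterocyte lists and neither E14.5 list, and 3054 (14.4%) were lost. Gained regions had a median of 813.2 bp in enterocytes and lost regions 614 bp at E14.5, against medians of 1328 bp in enterocytes and 1627 bp at E14.5 for regions called in all 4. Of gained regions 16.9% had at least 2000 bp, and of lost regions 2.8%. Ranked by −log10 q within their own list, peaks in gained regions had median percentiles of 15.2 and 33.9 in enterocytes. Peaks in lost regions had 17.5 and 24.0 at E14.5, and those in regions called in all 4 lists 53.8 to 69.2. Many gained and lost peaks were thus weak in their lists. The gained and lost counts each moved with 1 enterocyte library. Without replicate 1, the shorter list, there were 3863 gained and 3073 lost regions, and without replicate 2 there were 904 gained and 5182 lost ones.

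Stem cells already had some of these changes and lacked others. Both ISC lists held 174 (23.6%) of the 738 gained regions, 1 list held 199, and 365 (49.5%) were in neither. The share in both was 3.3% (6 of 180) for peaks reaching a −log10 q of 10, 34.2% (371 of 1084) in lists of equal number and 6.6% (254 of 3863) without enterocyte replicate 1. Of the 3054 lost regions, 2054 (67.3%) were missing from both ISC lists, 633 were in 1 and 367 (12%) in both (66.9% in neither without enterocyte replicate 1 and 43.2% without replicate 2). Those 367 were reported in embryo and stem cells and in neither enterocyte list. Of regions called in all 4 lists, 97.9% were in both ISC lists. Without ISC replicate 1 the gained regions found in the remaining ISC list were 356, and without E14.5 replicate 1 the lost regions in neither ISC list were 3214. In the E12.5 lists, 735 gained regions (99.6%) had no peak. Of lost regions, 641 (21.0%) had a peak in each E12.5 library and 1705 (55.8%) in neither. For regions called in all 4 lists these shares were 86.0% and 7.6%. The E12.5 lists held 10699 and 13218 autosomal peaks at 15053166 and 22696869 tags, which limits what a missing peak shows.

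**Figure D2:**
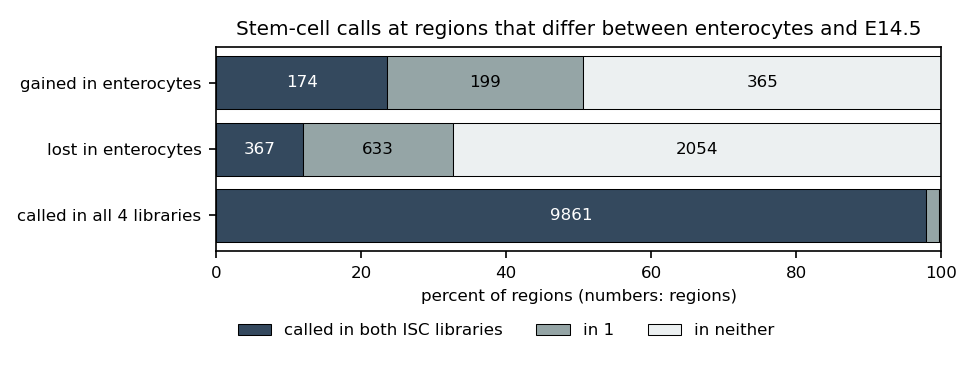
Share of regions (percent, x axis) by how many ISC libraries called them, for regions gained in enterocytes, lost in enterocytes and called in all 4 lists; printed numbers are regions. The darkest segment holds 174 gained regions, and the lightest holds 2054 lost ones.

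By covered length, limma called 1648 regions longer in enterocytes (10.1% of 16378) and 3499 shorter (21.4%), so that 32.0% of the called regions were longer. That share was 17.8% without scaling, 49.2% in lists of equal number and 16.1% when only peaks reaching a −log10 q of 10 were kept. Equal numbers of peaks favour balance by construction. The stricter cut fell unevenly on the libraries. Of peaks in regions called in all 4 lists, 5181 of 10216 reached it in enterocyte replicate 1 and 9549 of 10199 in replicate 2. At E14.5, 9410 of 10146 and 9402 of 10222 did. Keeping only those stronger peaks also ended the calls at Vil1 (adjusted p = 0.557), Slc26a6 (0.284), Ceacam1 (0.206), Shh (0.224), Klf4 (0.736) and Lgr5 (0.228), and at the regions starting at 67158286 on chromosome 1 (0.229), 60621836 on chromosome 11 (0.217) and 35038263 on chromosome 8 (0.083). The changes themselves did not vanish. Their log2 values were 1.43 at Vil1, 2.82 at Slc26a6, 0.85 at Klf4 and -4.00 at Shh. With all peaks they were 1.49, 2.87, 0.90 and -2.66. The fit took its spread from all 3 groups, and why the p-values rose was not tested. Lists of equal number ended the calls at Vil1 (limma adjusted p = 0.123) and the chromosome 8 region (0.158), and a pseudocount of 50 bp that at Meis1 (0.0865). Sis, Vim and the 4 largest increases among regions called in all 4 lists had no value when only the stronger peaks were kept. The same held for the regions starting at 110437440 on chromosome 2, 76289022 on chromosome 11, 11833095 on chromosome 15 and 66938458 on chromosome 17. Whether these calls hold among the stronger peaks was thus not tested. The longer count was 686 without E14.5 replicate 1 and 716 without E14.5 replicate 2. Among the 10077 regions called in all 4 lists, whose medians the scaling equalizes, 990 were longer (9.82%) and 685 shorter (6.8%). Covered lengths of 0 in both libraries leave no replicate spread to estimate, and the adjusted p of gained and lost regions may be too small for that reason.

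Of the 1648 longer regions, 352 (21.4%) were also longer in ISC against E14.5, a contrast with the same E14.5 libraries in which 2.2% of all regions were longer. Of the 3499 shorter regions, 2204 (63.0%) were also shorter in ISC, where 13.9% of all regions were shorter. Against ISC, enterocytes were further longer at 635 of the longer regions and further shorter at 415 of the shorter ones, while 4.16% and 2.59% of all regions were longer and shorter in that contrast. Neither contrast passed at 711 longer and 924 shorter regions. The 352 became 126 without E14.5 replicate 1 (18.4% of 686), and without E14.5 replicate 2 the share was 20.3% of 716.

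**Figure D3:**
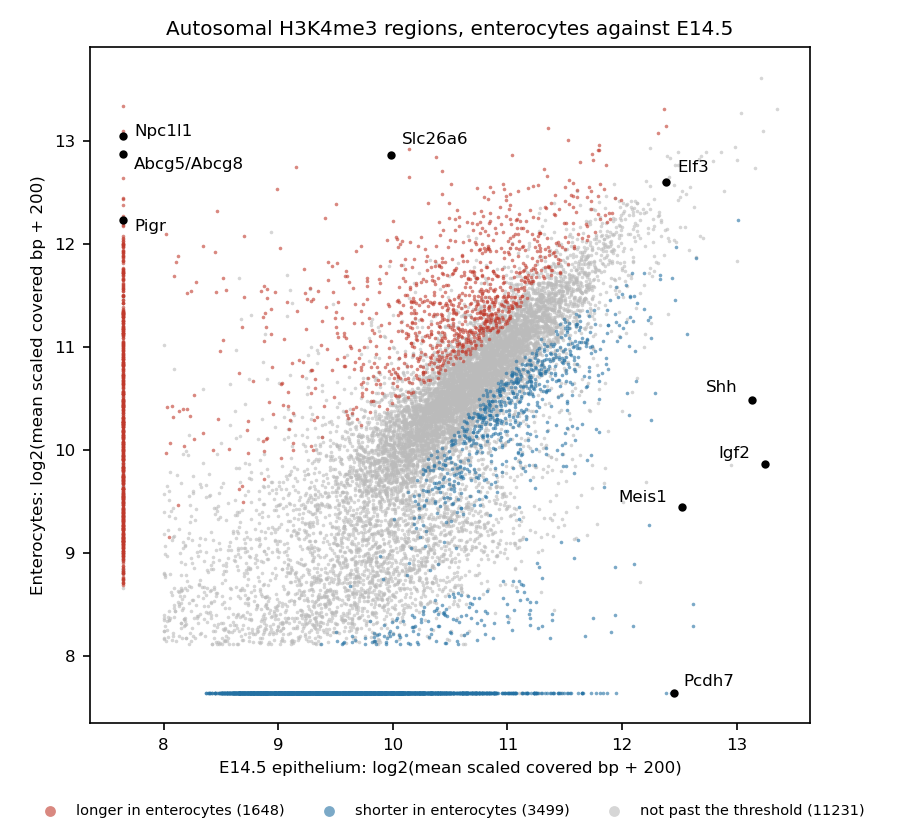
Mean scaled bp under peaks, as log2(bp + 200), in enterocytes (y axis) against E14.5 (x axis), each point 1 of the 16378 tested autosomal regions; red marks the 1648 longer and blue the 3499 shorter in enterocytes. The points along the left and lower edges are regions with no coverage in both libraries of E14.5 or of enterocytes, where Abcg5/Abcg8 and Pcdh7 lie.

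The regions with the most coverage that stem cells lacked are given by mm9 position only, since no listed gene was tied to them. Gained and in neither ISC list, chr17:34680713-34686329 had 5541 and 4278 bp in enterocytes (limma, adjusted p = 0.000359) and chr1:130218982-130224943 had 2763 and 5913 bp (adjusted p = 0.00085). The next were chr11:76289022-76292961, with 3795 and 3796 bp, and chr2:110437440-110441346, with 3809 and 3691 bp. All 4 had no coverage in ISC or at E14.5. Gained and in both ISC lists beside Abcg5/Abcg8, chr17:66938458-66947337 had 8880 and 6958 bp in enterocytes and 993 and 217 bp in ISC (adjusted p = 0.00365 against E14.5, and 0.0619 without E14.5 replicate 1 or 0.063 without replicate 2). The regions chr17:74295203-74300437 and chr9:98390738-98395324 had 3710 and 5235 bp and 4124 and 4587 bp in enterocytes, with 1032 and 525 bp and 960 and 237 bp in ISC, and the chromosome 9 region missed the threshold when E14.5 replicate 1 (0.0692) or replicate 2 (0.0702) was omitted. These 3 regions, picked for their length in enterocytes, were short in stem cells, whereas Pigr and Ceacam1 were not.

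Of the longest lost regions, some had no peak in stem cells and others had one. In neither ISC list, chr15:11833095-11837228 had 3688 and 4134 bp at E14.5, chr18:86879399-86883765 had 3983 and 3636 bp, chr5:143721701-143725413 had 3713 and 3651 bp and chr11:31268258-31271806 had 3501 and 3500 bp (limma, adjusted p between 0.000148 and 0.00016). All had none in adult libraries. Called in both ISC lists beside Pcdh7, chr1:67158286-67162920 had no coverage in enterocytes, 3764 and 4553 bp in ISC and 4623 and 4046 bp at E14.5, so that ISC did not pass against E14.5 (0.25) and enterocytes did (0.000144). The regions chr5:113564465-113568232, with 995 and 1605 bp in ISC and 3231 and 3733 bp at E14.5, and chr17:17962900-17966336, with 585 and 1090 bp in ISC and 3334 and 3437 bp at E14.5, were shorter in ISC than at E14.5 (0.029 for chromosome 5 and 0.015 for chromosome 17).

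Among regions called in all 4 lists, the largest increases were at chr13:74258490-74265293, with 5741 and 6755 bp in enterocytes, 1253 and 872 bp in ISC and 378 and 475 bp at E14.5 (log2 change 3.60 ± 0.23, limma adjusted p = 0.000513), and at chr15:80019520-80024975, with 5279 and 5399 bp in enterocytes, 1581 and 2275 bp in ISC and 241 and 472 bp at E14.5 (3.57 ± 0.22, 0.00048). Both were intermediate in stem cells. At chr2:14095183-14099785 stem cells were close to enterocytes, with 4603 and 2954 bp in enterocytes, 2329 and 2822 bp in ISC and 192 and 306 bp at E14.5 (3.33 ± 0.31, 0.00174, and 0.487 for enterocytes against ISC). At chr15:89206423-89210298 enterocytes had 3240 and 3876 bp, ISC 915 and 1253 bp and E14.5 432 and 297 bp (2.96 ± 0.15, 0.000258).

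The largest decreases beside Meis1 and Shh differed in what stem cells had. At chr11:60621836-60625243 enterocytes had 265 and 401 bp, ISC 1564 and 2726 bp and E14.5 2784 and 3315 bp (log2 change -2.37 ± 0.21, limma adjusted p = 0.00167), and ISC did not pass against E14.5 (0.646). At chr8:35038263-35042275 enterocytes had 520 and 605 bp, ISC 1197 and 1249 bp and E14.5 4013 and 4001 bp (-2.20 ± 0.08, 0.000144). There ISC lay between, and all 3 contrasts passed (0.000487 for ISC against E14.5 and 0.00795 for enterocytes against ISC).

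**Figure D4:**
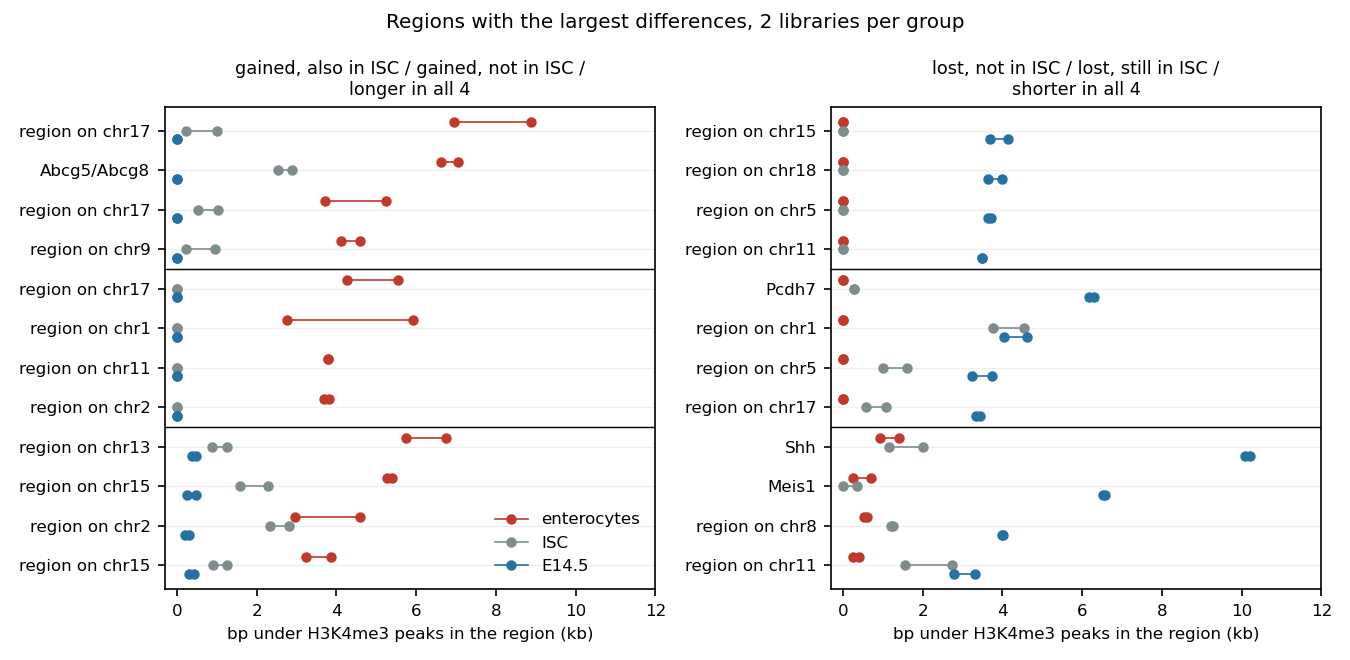
Bp under H3K4me3 peaks (kb, unscaled) at the regions with the most coverage or largest change by class, each point 1 library and each line joining the 2 libraries of a group. Stem-cell points lie at 0 in the gained and lost regions called in neither ISC list, and at 3764 and 4553 bp at the lost chromosome 1 region.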

How the data were processed

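H3K4me3 was measured in 2 libraries each of enterocytes, ISC and E14.5 epithelium. The 2 libraries of E12.5 embryos were read for peak presence and took no part in the fit. The deposited files are peak lists, 1 per library. Per the file headers, the authors called broad peaks with MACS 2.0.10.20130712, and mm9, bcl2fastq 1.8.4, Bowtie 1.1.2 and SAMtools 1.2 are named in the submitters' processing notes. Peaks carry, per the file headers, a length in bp, a pileup signal, a −log10 p-value and −log10 q-value, and a fold enrichment as a ratio; only position, length and −log10 q were used. The lists give no reads per region.

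Covered bp per region and library were divided by a factor that equalized medians over the 10077 regions called in all 4 lists (0.858 to 1.17). Regions called in at least 2 of the 4 lists were tested with limma 3.58.1 (R 4.3.3, trended prior, 6 libraries in 3 groups) on log2(scaled bp + 200), two-sided, with Benjamini-Hochberg adjustment within each contrast and a threshold of 0.05; the scale understates changes of short regions. The step was tested on data simulated from regions called in all 4 lists, so it was not tested on regions at 0 bp in a group. Printed bp are unscaled, and no log2 change of a single region is given against a group at 0; list medians include such regions.

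The gene names were attached by mm9 positions recalled from memory to about 10 kb, since no mm9 annotation was used here. The recalled positions were also compared with GRCm38.p6 promoter positions, and a first version of the names that rested on that comparison was withdrawn. The rule that ties a gene to a region was set after region values had been seen. Named regions are the 4 largest of each class (gained or lost by ISC calls, and longer or shorter in all 4 lists) among those past the threshold and not overlapping, plus the placed list genes. The members and lists were chosen with earlier results of these data known. The alternatives were other pseudocounts, no scaling, quantile normalization, fewer libraries, a replicate block, other region filters, lists of equal number, a stricter −log10 q and each library left out.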

Additional observations from a re-analysis of the deposited data

How the results depend on the processing

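The pseudocounts, the 4-library fit and the wider region filter kept every count within 1.5 times. Without scaling, the longer count was 1065 and the also-longer-in-ISC count 216. In lists of equal number (11650 peaks each), there were 1880 shorter, 1317 lost, 371 gained in both ISC lists, 714 lost in neither and 861 also shorter in ISC. With peaks of −log10 q of at least 10, there were 306 longer, 1595 shorter, 180 gained, 1994 lost, 6 gained in both ISC lists and 54 also longer in ISC. With each library left out, the ranges were 686 to 1683 longer, 2492 to 4863 shorter, 760 to 3863 gained, 3073 to 5182 lost, 184 to 356 gained in both ISC lists, 2055 to 3214 lost in neither, 126 to 377 also longer in ISC and 1991 to 2578 also shorter. The cause of these shifts was not tested, beyond fewer peaks in the stricter lists. Same-numbered libraries deviated together by correlations of 0.108, 0.288 and 0.097, so the numbers were not taken as pairs; with the replicate block there were 1619 longer, 3415 shorter, 309 also longer and 2139 also shorter in ISC. Under the block Igf2 passed (adjusted p = 0.0414) and Fabp1 did not (0.0653). Some named regions, such as Sis and Vim, had no value in lists of equal number or with −log10 q of at least 10. Of 40 named regions past the threshold, 22 stayed past it under every alternative with a value, and none changed sign. Signs turned at regions not past it: without scaling at Ihh (-0.24), Elf3 (-0.079), Cd3g (-0.0045), Axin2 (-0.095), Klf5 (-0.021) and Cdx1 (-0.0055), with quantile normalization at Ihh (-0.22), Elf3 (-0.020) and Axin2 (-0.071), with −log10 q of at least 10 at Ihh (-0.00039) and Axin2 (-2.02), with single libraries left out at Cdx2 (-0.28 to 0.22), Ihh (-0.00081 to 0.16) and Axin2 (-0.024 to 0.48). Depth limits what a missing peak can show, most in enterocyte replicate 1.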
